A study of Mus musculus with 2 samples.

Results

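Metallothioneins are small, cysteine-rich proteins that bind zinc and copper in the cytoplasm, and Slc30a1 encodes ZnT1, the transporter that moves zinc out of the cell across the plasma membrane. The genes taken up here were Mt1 and Mt2, which nearly every cell can express, Mt4, which is known from stratified epithelia such as the epidermis, and Slc30a1. Each was matched by its symbol in both count matrices, which gave 4 of 33904 genes. They were chosen by their levels in these same libraries, with the AD level of Mt1, Mt2, Mt4 and Slc30a1 against Ctrl already known, so the differences between libraries are a description of them and were not tested.

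The study profiled dorsal skin of a mouse model of atopic dermatitis (AD) by single-cell RNA-seq, with 10x 3′ chemistry. The Ctrl library came from female C57BL/6J mice, 7 weeks old, that received ethanol on a dorsal area of 2 cm by 2 cm each day, and the AD library from mice of the same strain, sex and age that received 4.5 nmol MC903 in ethanol per application. MC903 is calcipotriol, an analogue of vitamin D that brings on dermatitis when applied to skin. Both groups were depilated with a cream 24 h before the first application and sampled on day 10, and no transgene or deletion is named for either. The number of mice behind a library is not given in the sources used here.

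With 1 library per condition, no test between conditions could be made, and every interval below is a 95% interval for counting error alone. The kept cells were 11399 in Ctrl, with 105195951 unique molecular identifiers (UMIs, each standing for 1 captured mRNA molecule) and a median of 7813 UMIs per cell, and 8179 in AD, with 61645227 UMIs and a median of 6330. The unit of level is CPM, which stands for the UMIs of 1 gene per 1000000 UMIs summed over all genes and all cells of a class. The 3′ chemistry counts molecules, so CPM of different genes were compared without scaling by transcript length. Cells were assigned to types by marker genes, and 10.1% of Ctrl cells and 20.3% of AD cells had no type. The libraries shared 35 cell barcodes. Cyp24a1, a target of the vitamin D receptor, had 20 UMIs in Ctrl and 11833 in AD, in the direction of the labels. Between the libraries, conditions cannot be told apart from the preparation of each sample. The UMIs of 14 genes that respond to tissue dissociation made up 2.15% of all UMIs in Ctrl and 2.86% in AD.

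Transcription of Mt1 and Mt2 is known to be switched on by zinc through Mtf1, a transcription factor that senses the metal and binds short metal response elements in promoters, and Slc30a1 is a target of the same factor. Glucocorticoids, oxidants and inflammatory cytokines are also known inducers of Mt1 and Mt2. Zinc enters the cytoplasm through the ZIP family (Slc39a genes) and leaves it through the ZnT family (Slc30a genes), and in skin the metal is needed for the barrier and for wound repair.

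Mt4, Mt2 and Mt1 lie in the same region of chromosome 8. In GENCODE M21 on GRCm38, Mt4 (ENSMUSG00000031757) spans chr8:94137197-94139031, Mt2 (ENSMUSG00000031762) spans chr8:94172664-94173568 and Mt1 (ENSMUSG00000031765) spans chr8:94179082-94180327, all on the forward strand and each with 3 exons in its first listed transcript. The distance from Mt4 to Mt2 is 33632 bases and that from Mt2 to Mt1 is 5513 bases, and other genes within these stretches were not listed. Slc30a1 (ENSMUSG00000037434) lies on another chromosome, at chr1:191906767-191913247, with 2 exons. Transcripts of Mt1 and Mt2 share no run of bases longer than 20, and those of Mt2 and Mt4 none longer than 18.

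The promoters are shown as the place of the metal response elements named above, and their part in the levels was not tested. Each is the stretch of 250 bases before the RefSeq start of the gene (GRCm38.p6), read 5′ to 3′ on the forward strand at chr8:94178839-94179088 for Mt1, chr8:94172368-94172617 for Mt2, chr8:94136954-94137203 for Mt4 and chr1:191906531-191906780 for Slc30a1. Capitals mark a match, on either strand, to the core of the metal response element, searched as TGCACNC and TGCGCNC.
Mt1: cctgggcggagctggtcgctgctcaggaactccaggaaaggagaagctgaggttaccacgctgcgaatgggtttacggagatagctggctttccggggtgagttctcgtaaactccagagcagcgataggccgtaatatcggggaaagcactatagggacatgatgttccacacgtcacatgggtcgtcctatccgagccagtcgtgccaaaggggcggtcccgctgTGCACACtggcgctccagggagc
Mt2: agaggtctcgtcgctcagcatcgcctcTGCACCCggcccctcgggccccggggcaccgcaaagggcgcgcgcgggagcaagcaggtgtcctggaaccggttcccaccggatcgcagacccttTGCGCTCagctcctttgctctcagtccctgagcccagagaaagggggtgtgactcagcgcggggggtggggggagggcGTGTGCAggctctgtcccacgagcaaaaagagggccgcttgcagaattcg
Mt4: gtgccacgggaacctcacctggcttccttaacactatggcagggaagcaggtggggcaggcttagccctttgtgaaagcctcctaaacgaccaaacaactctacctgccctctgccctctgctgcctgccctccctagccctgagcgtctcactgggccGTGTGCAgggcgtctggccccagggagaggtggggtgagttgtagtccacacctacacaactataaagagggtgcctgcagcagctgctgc
Slc30a1: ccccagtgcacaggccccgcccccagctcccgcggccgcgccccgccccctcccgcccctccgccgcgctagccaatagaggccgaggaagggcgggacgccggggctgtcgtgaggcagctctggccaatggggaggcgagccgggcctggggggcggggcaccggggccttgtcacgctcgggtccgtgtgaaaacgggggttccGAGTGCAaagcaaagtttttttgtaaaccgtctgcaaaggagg

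A core was found once each in the windows of Mt1, Mt4 and Slc30a1 and 3 times in that of Mt2. Of 32851 mouse promoters of the same length, 7032 (21.4%) held at least 1 match and 415 (1.26%) held at least 3, so a single match is common and the count in Mt2 is not. When the window was carried 50 bases past the start, Mt1 held 3 matches, Mt2 held 4, Slc30a1 held 2 and Mt4 held 1, and 1.97% of all such windows held at least 3. In Mt1 the added matches begin 3 and 21 bases after the start, within gggagctcTGCACTCcgcccgaa and ccgaaaagTGCGCTCggctctgc. The core of the antioxidant response element, TGACNNNGC, was found once in the window of Mt2 and once in that of Slc30a1, as in 10.2% of all promoters, and not in those of Mt1 and Mt4. All counts depend on the RefSeq start used, as the rise in Mt1 with the longer window shows, and other starts were not examined. Elements outside the windows, such as any further past the start of Mt1, would be missed. No count here is therefore the full number of metal response or antioxidant elements of a gene. These letters are a description of the windows, and no binding was measured here.

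Mt1 was among the most abundant mRNAs of AD skin. Over all kept cells it stood at 1169 CPM in Ctrl against 8052 CPM in AD, a ratio of 2.78 on the log2 scale, and its rank among all genes by level went from 122 to 2. Mt2 stood at 859 CPM in Ctrl against 3391 CPM in AD, with a log2 ratio of 1.98 and ranks of 159 and 20. Together both genes took 0.203% of all UMIs in Ctrl and 1.14% in AD. Mt4 went the other way, from 8222 UMIs (78.2 CPM) to 24 UMIs (0.389 CPM), and Slc30a1 stood at 50.9 CPM in Ctrl against 33.7 CPM in AD. Because the libraries held different shares of each cell type, the levels within types are given next.

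Dermal fibroblasts (dFBs), the cells that build the dermal matrix, were the largest type, with 6141 cells in Ctrl and 4448 in AD. In these cells Mt1 had 67579 UMIs in Ctrl, or 1173 CPM (1164 to 1182), and 353253 UMIs in AD, or 9955 CPM (9922 to 9988). The level was thus 8.49-fold higher in AD, a log2 ratio of 3.09 (3.074 to 3.097), and Mt1 ranked 135 of all genes in Ctrl dFBs and 2 in AD dFBs. Of the 7004 genes at 20 CPM or more in dFBs of either library, 7.25% were past 2-fold in that direction, with Mt1 and Mt2 among them. The difference was spread over the cells and did not come from a few of them. The median dFB held 568 CPM of Mt1 in Ctrl and 7868 CPM in AD, and the quartiles were 137 and 1634 CPM in Ctrl and 3902 and 13840 CPM in AD, so that they did not overlap. The share of dFBs with at least 1 Mt1 UMI was 83.4% in Ctrl and 99.4% in AD, and after each cell was thinned to 1000 UMIs it was 48.4% and 94.5%.

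Mt2 followed Mt1 in dFBs. It had 49628 UMIs (861 CPM) in Ctrl and 154824 UMIs (4363 CPM) in AD, which was 5.07-fold higher, a log2 ratio of 2.34 (2.33 to 2.36). Cells with a UMI made up 76.4% of dFBs in Ctrl and 96.4% in AD, or 39.3% and 83.7% after thinning. Both metallothioneins together held 0.203% of the UMIs of Ctrl dFBs and 1.43% of those of AD dFBs. The dissociation genes stood at 24565 CPM in Ctrl dFBs and 33597 CPM in AD dFBs, and within cells in which they made up less than the median share the log2 ratio was 3.35 for Mt1 and 2.63 for Mt2. In keratinocytes the same choice gave 1.98 for Mt1 and 1.19 for Mt2, below the values over all cells given further on.

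**Figure D1:**
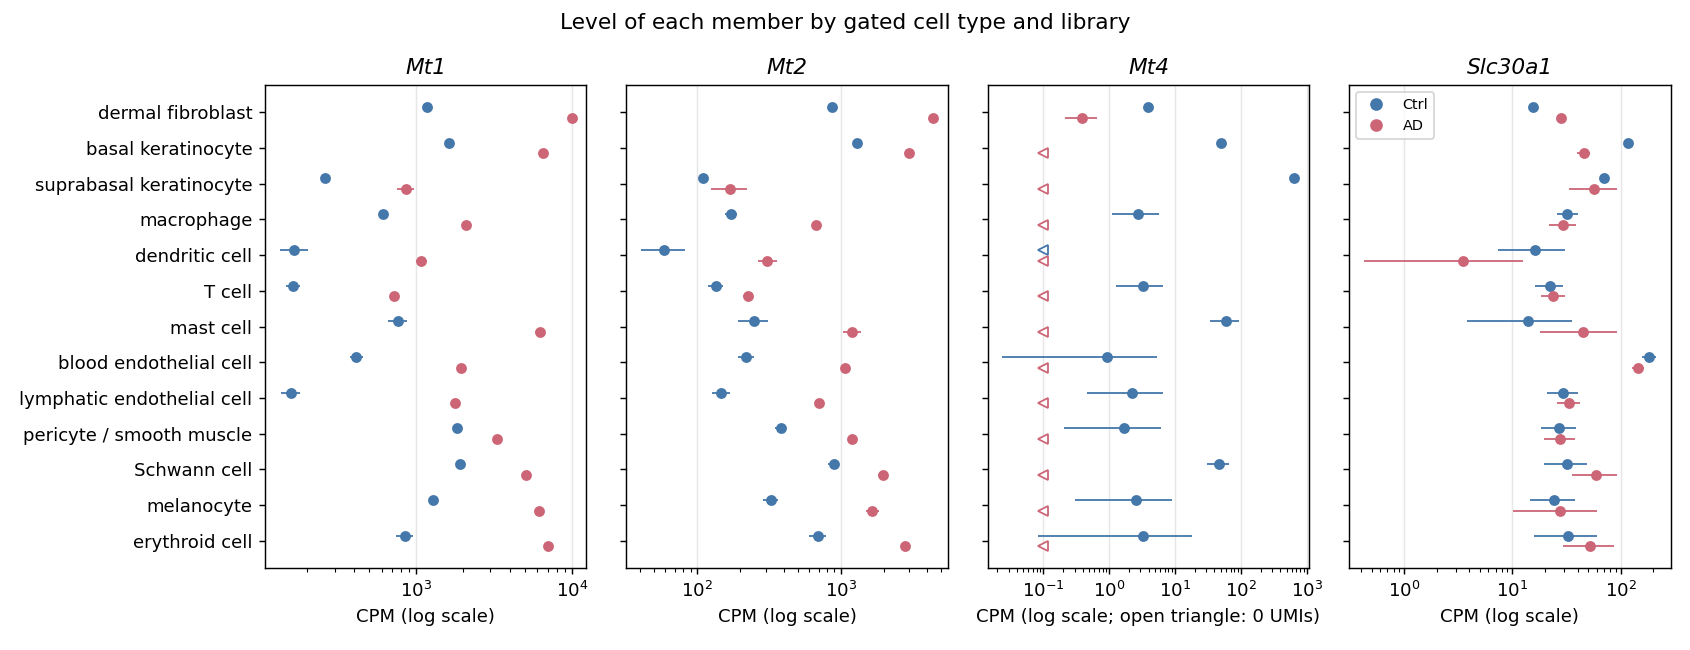
Level of each gene in CPM (log axes) in the 13 gated cell types with at least 20 cells in both libraries, Ctrl in blue and AD in red, with exact Poisson 95% intervals for counting error and open triangles for 0 UMIs. Mt1 and Mt2 were higher in AD in 13 of 13 types, Mt4 had 0 UMIs in 12 of the AD types, and for Slc30a1 most intervals overlapped.

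Higher Mt1 in AD was seen in every type that could be compared. Over the 13 types with at least 20 cells in each library, counting basal and suprabasal keratinocytes as separate types, the level of Mt1 was higher in AD in 13, past 2-fold in 12 of them, and the log2 ratios ran from 0.86 to 3.51 with a median of 2.23. Mt2 was higher in 13 of 13 and past 2-fold in 11, with log2 ratios from 0.62 to 2.38 and a median of 2.03. Values for free RNA from dFBs in some of these types are given below. In most types few of the measured genes went past 2-fold in that direction, with 4.70% in basal keratinocytes, 11.7% in suprabasal keratinocytes, 5.84% in macrophages, 13.7% in dendritic cells, 2.86% in T cells, 12.9% in mast cells, 3.71% in blood endothelial cells, 4.02% in lymphatic endothelial cells, 6.93% in pericytes with smooth muscle cells and 8.55% in Schwann cells, while melanocytes (19.4%) and erythroid cells (26.2%) had more. The types share their 2 libraries and are not replicates of each other. The median ratio over well-measured genes lay within 0.1 of 0 on the log2 scale in every type but T cells, where it was -0.17, and erythroid cells, where it was 0.27.

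The order of types is given for those with at least 20 cells in a library. In Ctrl the order by Mt1 began with cells of the hair follicle. Inner sheath cells stood at 2316 CPM, matrix and cortex cells at 2313 CPM and satellite cells, the stem cells of muscle, at 2152 CPM, with intervals that overlapped, and few of these cells were captured in AD. Schwann cells (1921 CPM) and pericytes with vascular smooth muscle cells (1819 CPM) followed and did not differ beyond counting error. Basal keratinocytes, a class of mixed makeup described below, stood at 1616 CPM, melanocytes at 1286 CPM and dFBs at 1173 CPM. The lowest levels were those of dendritic cells (165 CPM), T cells (163 CPM) and lymphatic endothelial cells (156 CPM), whose intervals overlapped, and of sebocytes (97.1 CPM).

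In the AD library, 115 adipocytes were highest in Mt1, at 16070 CPM with all cells holding a UMI, but Ctrl held 1 adipocyte, so no ratio can be given. After dFBs came erythroid cells (6976 CPM) and then basal keratinocytes (6534 CPM), mast cells (6193 CPM) and melanocytes (6120 CPM), of which each overlapped the next in its interval. Schwann cells stood at 5059 CPM, pericytes with smooth muscle cells at 3308 CPM and neutrophils, of which Ctrl held too few to compare, at 2727 CPM. Lowest were suprabasal keratinocytes (856 CPM), T cells (722 CPM) and basophils (688 CPM). For Mt2 the highest AD types were again adipocytes (4846 CPM) and dFBs (4363 CPM), and suprabasal keratinocytes (169 CPM) and T cells (226 CPM) the lowest.

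Among vessel and immune cells, the level moved furthest in lymphatic endothelial cells, which drain fluid and leukocytes from the skin. Their Mt1 had 208 UMIs (156 CPM) in Ctrl and 3616 UMIs (1775 CPM) in AD, a log2 ratio of 3.51 (3.30 to 3.71), and cells with a UMI went from 33.8% to 91.0%, or from 7.31% to 59.3% after thinning. In blood endothelial cells Mt1 stood at 412 CPM in Ctrl against 1932 CPM in AD, a log2 ratio of 2.23 (2.08 to 2.38). In macrophages it stood at 614 and 2103 CPM, with a log2 ratio of 1.78 (1.69 to 1.86). Each of these intervals lay well above 0.

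T cells had 163 CPM of Mt1 in Ctrl and 722 CPM in AD, a log2 ratio of 2.15 (1.98 to 2.32), and their Mt2 stood at 135 and 226 CPM, with a log2 ratio of 0.75 (0.54 to 0.95). The UMIs were unevenly spread, as the top 10% of AD T cells carried 69.5% of their Mt1 UMIs, while the median cell held 271 CPM. Mast cells, which store histamine and proteases, had the highest ratio of the leukocyte types, with 759 CPM in Ctrl against 6193 CPM in AD and a log2 ratio of 3.03 (2.81 to 3.25) from 130 and 47 cells. Pericytes with smooth muscle cells had the smallest ratio for Mt1, 0.86 (0.79 to 0.94), from 1819 CPM in Ctrl against 3308 CPM in AD. In melanocytes, with a log2 ratio of 2.25 for Mt1, the dissociation genes also stood higher in AD, at 7675 and 21253 CPM, and their part in the ratio was not tested.

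Free RNA from the abundant dFBs can enter any droplet, so the mRNAs of 6 dFB matrix genes were measured in each type as a share of their level in dFBs. In AD macrophages these stood at a median of 2.65% of the dFB level, a share that corresponds to 264 CPM of Mt1 where 2103 CPM was measured, and with the highest of the 6 genes to 403 CPM. For lymphatic endothelial cells the values were 3.24%, 322 CPM of 1775 CPM and at most 724 CPM, and for T cells 1.30%, 130 CPM of 722 CPM and at most 295 CPM. For keratinocytes they were 1.80%, 179 CPM of 6236 CPM and at most 240 CPM. For blood endothelial cells they were 3.66%, 365 CPM of 1932 CPM and at most 1035 CPM, and for Schwann cells 10.1%, 1002 CPM of 5059 CPM and at most 2587 CPM. In AD erythroid cells the share was 33.8%, or 3360 CPM of 6976 CPM, and their own Ctrl value was 39.5%. In AD pericytes the 6 genes ran from 2.03% to 77.5% of the dFB level, the highest of which would correspond to 7715 CPM of Mt1, above the 3308 CPM measured. For Mt2 in AD T cells the share corresponds to 56.9 CPM of 226 CPM and at most 129 CPM, beside 135 CPM in Ctrl. In AD suprabasal keratinocytes it was 33.1 CPM of 169 CPM and at most 137 CPM, beside 110 CPM in Ctrl. AD pericytes had 560 CPM of 1199 CPM and at most 3381 CPM, beside 381 CPM in Ctrl. In AD macrophages, by contrast, it was 116 CPM of 672 CPM and at most 177 CPM, beside 173 CPM in Ctrl. The part of dFB RNA in the level of each type was not tested.

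**Figure D2:**
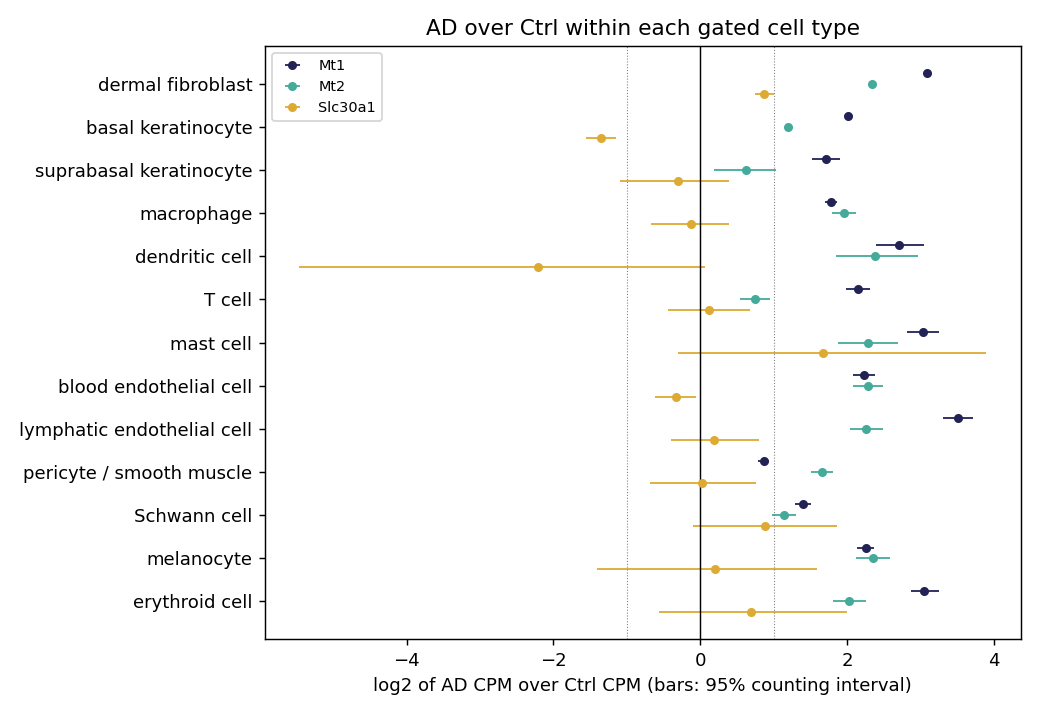
Log2 ratio of AD over Ctrl for Mt1, Mt2 and Slc30a1 in the 13 gated cell types, with exact 95% intervals for counting error and dotted lines at 1 and -1. Mt1 ran from 0.86 in pericytes and smooth muscle cells to 3.51 in lymphatic endothelial cells, while the intervals of Slc30a1 held 0 in 10 of 13 types.

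When the cells were split by unsupervised clusters, without use of the marker gate, 18 clusters held at least 20 cells of each library. Mt1 was higher in AD in 17 of them and Mt2 in 16, each with an interval above 0, and for Mt2 the interval of 1 further cluster held 0. The exception for both was a small cluster of T cells with Trdc, which encodes part of the γδ T cell receptor, and Areg, a ligand of the epidermal growth factor receptor, among its leading genes, and with 85 cells in Ctrl and 48 in AD. Its Mt1 stood at 530 CPM in Ctrl against 431 CPM in AD, a log2 ratio of -0.30 (-0.72 to 0.11), and its Mt2 had a log2 ratio of -0.88. The Ctrl level rested on few cells, as the top 10% carried 82.4% of the Mt1 UMIs and the median cell had none, whereas the median AD cell of the cluster held 358 CPM. The share of its cells with a UMI, unlike the level, was higher in AD, at 45.9% in Ctrl and 79.2% in AD.

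Mt1 and Mt2 did not move in step in every type. Over all cells there were 1.36 UMIs of Mt1 per UMI of Mt2 in Ctrl and 2.37 in AD, and the same held in dFBs (1.36 and 2.28) and keratinocytes (1.28 and 2.22). T cells went from 1.21 (1.03 to 1.42) to 3.20 (2.92 to 3.50), and lymphatic endothelial cells from 1.07 to 2.53. In blood endothelial cells the difference was within counting error, with 1.87 (1.59 to 2.20) in Ctrl and 1.80 (1.70 to 1.91) in AD, and in melanocytes too, with 3.96 and 3.70. Pericytes with smooth muscle cells went the opposite way, from 4.78 (4.32 to 5.30), the highest of the 13 types in Ctrl, to 2.76 (2.61 to 2.92).

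dFBs were then divided by markers of 6 subsets, whose names are those of the marker lists used here. Dpp4 interstitial dFBs (2253 cells in Ctrl, 547 in AD) had 1654 CPM of Mt1 in Ctrl and 8668 CPM in AD. Areg-like dFBs (171 and 1045 cells) had the highest level of the named subsets in both libraries, 2248 and 10876 CPM. Reticular preadipocyte-like dFBs (903 and 1460 cells) had 1400 and 10099 CPM, and dFBs of no subset (1369 and 1270 cells) 1171 and 10178 CPM. In each of these subsets the AD level was several times that in Ctrl.

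Peri-follicular papillary dFBs, which surround hair follicles, had lower levels in both libraries, with 603 CPM of Mt1 in 328 Ctrl cells and 3613 CPM in 111 AD cells. Contractile dFBs (682 cells) and dFBs of the follicle mesenchyme (435 cells) were lowest, with 145 and 143 CPM in Ctrl, and AD held only 13 and 2 cells of them. Mt2 had the same pattern, with 1270 and 4206 CPM in Dpp4 interstitial dFBs, 1363 and 4610 CPM in Areg-like dFBs, 374 and 1439 CPM in peri-follicular papillary dFBs, and 110 and 99.5 CPM in the contractile and mesenchyme subsets of Ctrl. With both libraries weighted to the mix of subsets in Ctrl, the log2 ratio in dFBs was 2.64 for Mt1 and 1.96 for Mt2, below the 3.09 and 2.34 of the summed cells.

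Among the clusters of AD dFBs, the highest Mt1 stood at 15072 CPM, in a cluster of 861 cells that had the chemokine genes Cxcl13, Ccl7, Cxcl1 and Ccl2 among its leading genes. The other large AD clusters of dFBs stood at 11260, 9084 and 7819 CPM. The clusters were made from the same cells, so this order is a description. Slc30a1 was higher in AD in Dpp4 interstitial dFBs, with 12.98 CPM in Ctrl against 33.7 CPM in AD, in reticular preadipocyte-like dFBs, with 14.1 and 23.0 CPM, and in dFBs of no subset, with 18.3 and 34.2 CPM. In Areg-like dFBs (25.4 and 28.2 CPM) and peri-follicular papillary dFBs (23.8 and 27.0 CPM) its intervals overlapped.

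**Figure D3:**
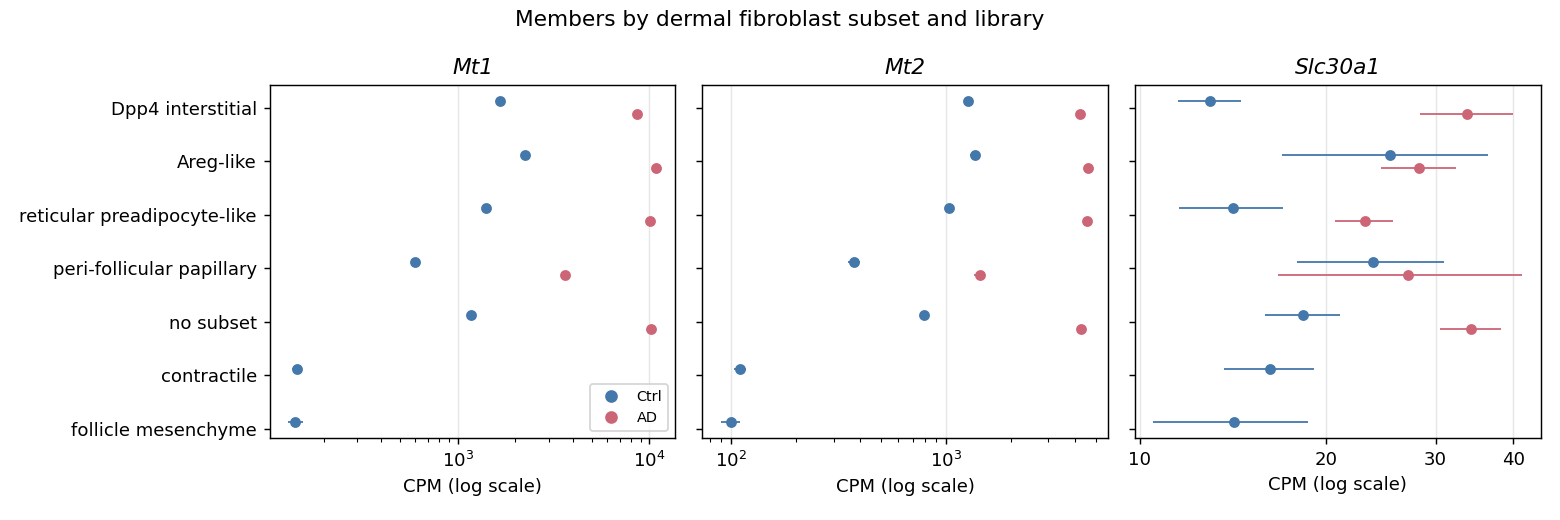
Level in CPM (log axes) of Mt1, Mt2 and Slc30a1 in dFB subsets of Ctrl (blue) and AD (red), with exact Poisson 95% intervals for counting error. Contractile and follicle mesenchyme dFBs are drawn for Ctrl only, since AD held 13 and 2 of them, and they had the lowest Mt1, at 145 and 143 CPM.

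**Figure D4:**
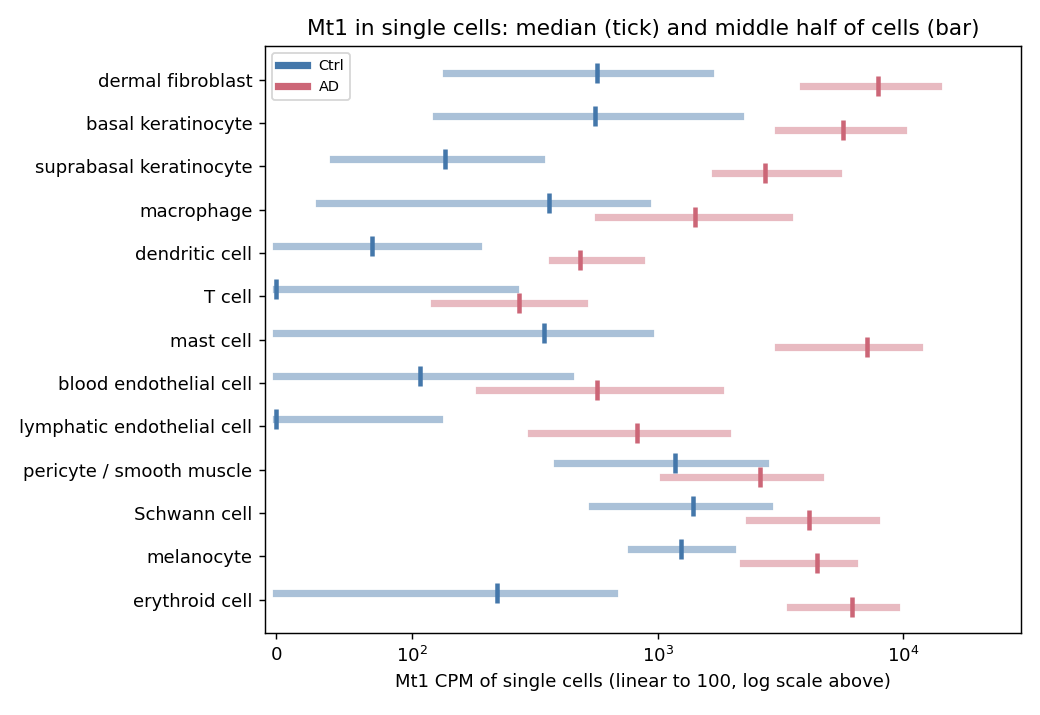
Mt1 in single cells by type and library, in CPM of each cell, with the median as a tick and a bar from the lower to the upper quartile, on an axis that is linear up to 100 CPM and logarithmic above. The median dFB held 568 CPM in the Ctrl library and 7868 CPM in the AD library.

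Keratinocytes, the epithelial cells of the epidermis and hair follicle, were 1776 in Ctrl and 380 in AD. Mt1 had 31700 UMIs (1164 CPM) in Ctrl and 33878 UMIs (6236 CPM) in AD, a log2 ratio of 2.42 (2.40 to 2.44), and Mt2 stood at 909 and 2812 CPM, with a log2 ratio of 1.63 (1.60 to 1.66). Of 7081 genes measured in keratinocytes, 6.02% were past 2-fold higher in AD. Cells with an Mt1 UMI made up 82.9% in Ctrl and 99.5% in AD, or 42.5% and 92.1% after thinning. In cells that passed as basal keratinocytes, by markers of the dividing layer, Mt1 stood at 1616 CPM in 1143 Ctrl cells and 6534 CPM in 353 AD cells. The log2 ratio was 2.02 (1.99 to 2.04). This class also took in cells of clusters found almost only in Ctrl, described next, so its makeup differed between the libraries.

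The keratinocytes of both libraries were not alike in makeup. A cluster of 522 proliferating cells and a cluster of 422 cells were present in Ctrl and, with 0 and 2 cells, all but missing from AD. The second had Ptn, Lhx2, Mt4 and Krt28 among its leading genes. Of their cells, 66.9% and 52.8% passed the gate as keratinocytes, most of these as basal keratinocytes. They were high in Mt1 (2642 and 2764 CPM), Mt2 (2253 and 2301 CPM) and Slc30a1 (163 and 207 CPM). Their Mt4 stood at 103 and 230 CPM, against 50.5 CPM in all Ctrl basal keratinocytes. Without both clusters, an alternative added once the data had been seen, the log2 ratio in keratinocytes was 3.55 for Mt1, 3.08 for Mt2 and -0.67 for Slc30a1, in place of 2.42, 1.63 and -1.24. Within a cluster of both libraries led by Krt15 and Krt17 (377 and 206 cells), Mt1 stood at 783 and 7903 CPM, with a log2 ratio of 3.33, and Mt2 at 620 and 3378 CPM, with a log2 ratio of 2.45. In a cluster led by lipid genes (197 and 132 cells) the log2 ratios were 3.33 and 3.40.

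Mt4 was a gene of keratinocytes in Ctrl, and its level there lay below those of Mt1 and Mt2 except in the suprabasal layer. Of its 8222 UMIs in Ctrl, 84.7% were in keratinocytes, where it stood at 256 CPM beside 1164 CPM of Mt1 and 909 CPM of Mt2. In all other gated cells together it had 295 UMIs, or 4.29 CPM, a log2 ratio of 5.90 for keratinocytes over these cells. When the cells of no type were added to the others, an alternative added once the data had been seen, they held 16.1 CPM and the log2 ratio was 3.99. Cells with an Mt4 UMI made up 23.5% of keratinocytes, 2.15% of dFBs and 1.11% of T cells, at median depths of 14458, 8611 and 2982 UMIs, and after thinning 10.6%, 0.33% and 0.16%. dFBs and T cells are types that should lack the gene. Of the 223 Mt4 UMIs in Ctrl dFBs, 82 were in 9 cells with at least 5 each, and the part of free RNA, doublets or gating in them was not tested.

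Within the Ctrl epithelium, suprabasal keratinocytes (458 cells), which have left the basal layer and begun to cornify, had 5581 Mt4 UMIs, or 640 CPM (623 to 657), against 261 CPM of Mt1 and 110 CPM of Mt2. They were the only gated type of this library with more Mt4 than Mt1. Basal keratinocytes held 776 UMIs (50.5 CPM), inner sheath cells 127 UMIs (92.3 CPM) and sebocytes 1 UMI. Follicle matrix and cortex cells, which form the hair shaft, had the highest level, 909 CPM (830 to 994), with 40 cells of which 92.5% held a UMI, beside 2313 CPM of Mt1 and 2185 CPM of Mt2. Mast cells and Schwann cells had 17 and 29 Mt4 UMIs, in 1.54% and 2.63% of their cells.

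Mt4 was lower where markers of the granular layer, the last living layer of the epidermis, were present. Suprabasal keratinocytes with none of these markers (108 cells) stood at 1238 CPM, those with 1 marker (131 cells) at 775 CPM and those with 2 or more (219 cells) at 417 CPM. Mt1 had the same order, at 496, 356 and 157 CPM, and so had Mt2, at 198, 171 and 60.9 CPM. Slc30a1 had the opposite order, at 43.1, 48.5 and 87.3 CPM. A Ctrl cluster led by Flg and Lor, genes of the cornified envelope (108 cells), had 90.5 CPM of Mt4 and 70.1 CPM of Mt1 and 106 CPM of Slc30a1. By CPM all 3 metallothioneins were thus lower, and the exporter higher, in suprabasal cells with more granular markers. The marker groups differed in median depth (14650, 15519 and 23711 UMIs), and markers are detected more readily in deep cells. Cells with an Mt4 UMI made up 59.3%, 38.2% and 40.6%, or 43.1%, 25.6% and 18.1% after thinning. The part of depth in the order was not tested.

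**Figure D5:**
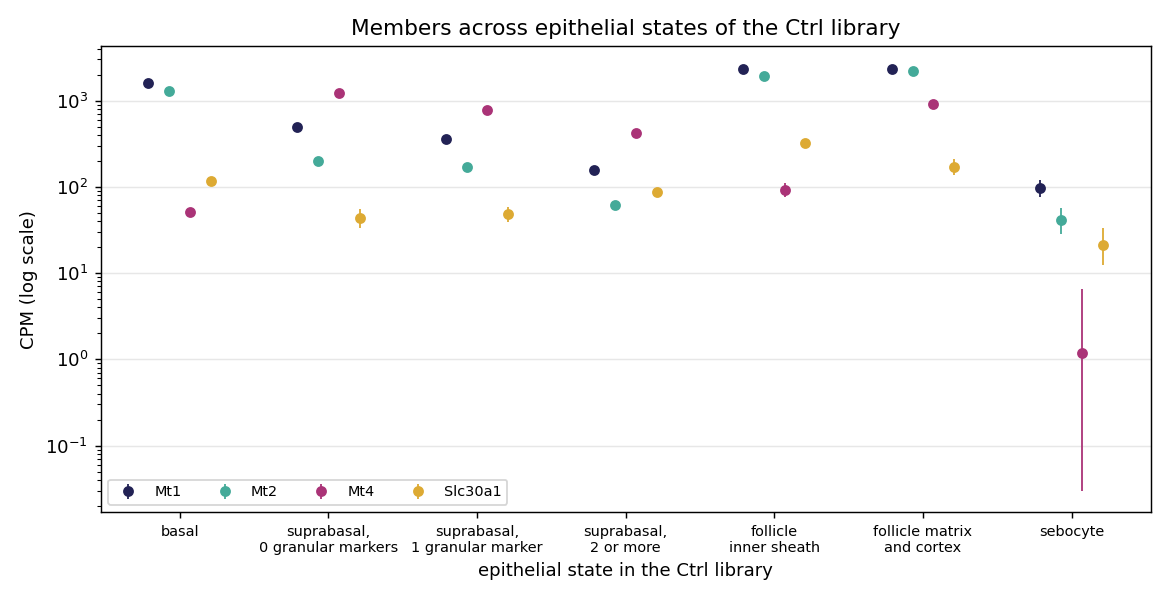
Level in CPM (log axis) of the 4 genes in epithelial states of the Ctrl library, with exact Poisson 95% intervals for counting error. Mt4 was above Mt1 in the suprabasal states, at 1238 against 496 CPM with no granular marker, and below it in basal, inner sheath and matrix cells.

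In AD keratinocytes no Mt4 UMI was found among 5433033 UMIs. With 3 counts as the limit that a count of 0 allows, the level was under 0.552 CPM and at least 464-fold lower than in Ctrl, and 10.3% of measured genes were past 2-fold in that direction. For basal keratinocytes alone the level was at least 86.1-fold lower, but in Ctrl this class included cells of the Ctrl-only clusters named above. The cluster led by Krt15 and Krt17 had 19 Mt4 UMIs (4.66 CPM) in Ctrl and 0 in AD, a level at least 3.39-fold lower. The AD library had 24 Mt4 UMIs in all, 14 in dFBs and 10 in cells of no type, held by 11 cells with at most 6 UMIs each. In Ctrl 704 cells had a UMI and 222 had at least 10, of which 179 were keratinocytes, and the highest had 110. No AD cell held as many as 10.

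Suprabasal keratinocytes, the main source of Mt4 in Ctrl, were 24 in AD, with a median depth of 1383.5 UMIs against 17867.5 in Ctrl. They had 0 Mt4 UMIs, which allows up to 10.1 CPM and a level at least 63.2-fold lower than in Ctrl. Their Krt1 stood at 2973 CPM and Krt10 at 8300 CPM, against 7729 and 25378 CPM in Ctrl, so keratins of the suprabasal layer were present. Krt14, a marker of basal keratinocytes, stood at 6429 CPM against 310 CPM, so the class was not alike in both libraries. Lor, a granular marker, stood at 175 CPM against 1780 CPM, and Krt6a and Krt16, keratins known from wounded and inflamed epidermis, at 3061 and 2653 CPM against 25.1 and 108 CPM. Within a cluster that held 627 Ctrl and 72 AD cells, Mt4 stood at 588 CPM and 0 UMIs, at least 208-fold lower in AD, while Krt1 stood at 5427 and 26.4 CPM and Krt10 at 13545 and 276 CPM. Whether fewer differentiated keratinocytes or less Mt4 in each lay behind this cannot be told apart where so few AD cells express these keratins.

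Slc30a1, the zinc exporter, differed more between cell types than between libraries. In Ctrl the inner sheath of the follicle had the highest level, 325 CPM (295 to 356) with a UMI in 86.7% of 83 cells, and blood endothelial cells (184 CPM) and matrix and cortex cells (171 CPM) followed with overlapping intervals. Basal keratinocytes stood at 116 CPM and suprabasal keratinocytes at 70.8 CPM. Types from erythroid cells (32.7 CPM) down to mast cells (13.99 CPM) had low levels, most with overlapping intervals. Among AD types with at least 20 cells, blood endothelial cells were highest, at 146 CPM (127 to 166), above the interval of each of the others, while neutrophils and basophils had no UMI.

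Between the libraries, Slc30a1 had 889 UMIs (15.4 CPM) in Ctrl dFBs and 1000 UMIs (28.2 CPM) in AD dFBs, a log2 ratio of 0.87 (0.74 to 1.00). Cells with a UMI made up 11.5% and 17.3%, or 1.73% and 3.00% after thinning. The gene reached the 20 CPM limit in dFBs through the AD library alone. Among dFBs low in dissociation genes the log2 ratio was 0.40. In keratinocytes it had 2991 UMIs (110 CPM) in Ctrl and 253 UMIs (46.6 CPM) in AD, a log2 ratio of -1.24 (-1.43 to -1.05), and 56.0% of Ctrl cells but 37.9% of AD cells held a UMI (10.5% and 4.78% at 1000 UMIs per cell). Without the Ctrl-only clusters named above it was -0.67, and with states weighted by their share in Ctrl it was -1.003. The part of cell makeup in the difference was not tested.

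Blood endothelial cells had a slightly lower level in AD, with a log2 ratio of -0.34 (-0.62 to -0.05). In the other 10 types the interval held 0, as in macrophages (-0.13, -0.67 to 0.39), T cells (0.11, -0.45 to 0.68) and lymphatic endothelial cells (0.19, -0.40 to 0.79), where Mt1 was 3.43-fold, 4.43-fold and 11.4-fold higher. The 2 largest ratios in size rested on few molecules, 4 and 7 UMIs in mast cells and 9 and 2 UMIs in dendritic cells. Within the Krt15 and Krt17 cluster of keratinocytes Slc30a1 stood at 150 CPM in Ctrl against 53.1 CPM in AD, a log2 ratio of -1.50, while in the cluster led by lipid genes it stood at 30.6 and 37.7 CPM.

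The other genes of zinc handling were read from lists, in genes at 20 CPM or more in either library. Of 9 other ZnT transporters, 4 were measured in dFBs and 4 in keratinocytes, and none was past 2-fold, with median log2 ratios of 0.06 and -0.01 beside -0.06 and -0.09 over all genes measured in these types. Of 14 ZIP importers 7 were measured in dFBs, with 2 past 2-fold higher and 1 lower, where 7.25% and 11.9% of all measured genes were. Slc39a14, which brings zinc and iron into the cell and is known to respond to inflammation, stood at 66.6 CPM in Ctrl dFBs and 318 CPM in AD dFBs, a log2 ratio of 2.26. Slc39a8, its close relative, stood at 5.88 and 24.5 CPM and reached the 20 CPM limit through the AD library alone, and Slc39a13, a transporter of the secretory pathway, at 44.6 and 19.7 CPM.

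In keratinocytes 7 ZIP importers were measured, with 1 past 2-fold higher and 2 lower, where 6.02% and 10.3% of all measured genes were. Slc39a10, an importer of the plasma membrane, had the largest difference, with 326 CPM in the Ctrl library and 30.002 CPM in the AD library, a log2 ratio of -3.44. Slc39a6, related to Slc39a10, stood at 85.9 and 41.8 CPM, and Slc39a13 at 8.71 and 20.3 CPM, where only the AD level reached the limit. Mtf1, the metal sensor, was nearly level, with 17.01 and 16.03 CPM in dFBs, under the limit, and 24.2 and 23.7 CPM in keratinocytes. Mt3, the metallothionein known from the nervous system, stood at 0.19 and 0.23 CPM in dFBs and was measured in Schwann cells, where it stood at 218 CPM in Ctrl against 286 CPM in AD.

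Lists of the other known inducers were read in the same way, beside the shares of all measured genes past 2-fold, which were 7.25% higher and 11.9% lower in dFBs and 6.02% higher and 10.3% lower in keratinocytes. Of 8 glucocorticoid targets, all were measured, and 3 were past 2-fold higher in AD dFBs (Ddit4, 23.6 and 117 CPM, Sgk1, 109 and 371 CPM, and Cdkn1a, 266 and 794 CPM) and 5 in AD keratinocytes (Tsc22d3, 66.2 and 364 CPM, Zbtb16, 29.7 and 128 CPM, Ddit4, 89.1 and 299 CPM, Sgk1, 148 and 346 CPM, and Fkbp5, 53.6 and 111 CPM). None was past 2-fold lower in either type, and the median log2 ratios were 0.89 and 1.13 beside -0.06 and -0.09 over all genes. The rest of the list in dFBs had log2 ratios of 0.96 (Zbtb16), 0.84 (Fkbp5), 0.21 (Tsc22d3), 0.01 (Per1) and -0.41 (Nr3c1). Elsewhere the median was -0.11 in suprabasal keratinocytes, -0.04 in dendritic cells, 0.05 in blood endothelial cells, 0.12 in T cells and 0.20 in macrophages. In the remaining types it ran from 0.71 in Schwann cells to 2.61 in melanocytes. Of 10 genes of the oxidative stress response, 8 were measured in dFBs, with 4 past 2-fold higher (Hmox1, 56.2 and 149 CPM, Gclc, 46.8 and 106 CPM, Txnrd1, 156 and 326 CPM, and Sod2, 109 and 421 CPM) and none lower, and 7 in keratinocytes, with none past 2-fold.

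Of 12 genes of copper and iron handling, 9 were measured in each type, and the counts past 2-fold were near those shares. In dFBs 1 was higher, Cp, the copper-carrying ferroxidase ceruloplasmin, at 68.2 and 267 CPM. In keratinocytes Fth1, which stores iron, was higher at 671 and 1542 CPM, and Slc11a2, an iron importer, lower at 28.0 and 12.9 CPM. All 14 dissociation genes were measured. In dFBs 2 of them, Fos and Junb, were past 2-fold higher (7.25% of all genes), and in keratinocytes 3 (Fos, Fosb and Junb) were higher (6.02% of all genes) and Dnajb1 lower (10.3%). Of 5 vitamin D genes 3 were measured in each type and 1, Cyp24a1, was past 2-fold higher, at 0 and 92.7 CPM in dFBs and 0.735 and 1106 CPM in keratinocytes. The part of each of these lists in the levels of Mt1 and Mt2 was not tested.

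The genes whose levels were most like each gene's were found by Pearson's r of log2(CPM + 1) over 25 classes of at least 50 cells, 14 of Ctrl and 11 of AD, among the 5606 genes that reached 100 CPM in at least 1 class. These classes share the 2 libraries, so r is a description. Mt1 was most like Mt2 (r = 0.94), followed by ENSMUSG00000121137 (0.86), Aldh6a1 (0.82), Rrs1 (0.81) and Tmem87b (0.81), and Mt2 was most like Mt1, ENSMUSG00000121137 (0.88), Id3 (0.83), Peg3 (0.83) and Rrs1 (0.82). Mt4 was most like Dsg1b (0.89), Casp14 (0.87), Alox12e (0.85), Dsg1a (0.83) and Dlx3 (0.83), and Dsg1a was itself a marker of the gate. For Slc30a1 the nearest were Slc39a10 (0.73), Cd2ap (0.69), Mbtd1 (0.69), F11r (0.64) and Ptma (0.64). Across the classes Mt1 had little relation to Slc30a1 (r = 0.09) and a weak inverse one to Mt4 (r = -0.32).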

How the data were processed

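Skin cells of 1 Ctrl and 1 AD library were analysed from the UMI count matrices that the authors deposited, in which each count is the number of UMIs of 1 gene in 1 barcode, without normalization. The matrix header names Cell Ranger 5.0.0, whereas the submitters' processing notes name Cell Ranger 3.1.0, Seurat 5.0 and mm10. Which version made the files was not settled, and the enzyme used to digest the skin is also given differently by the labels and the methods. Of 12598 and 8778 barcodes (125184653 and 76106062 UMIs), those with 200 to 6000 genes were kept if no more than 10% of their UMIs were mitochondrial, as in the study's methods. Of 33904 gene identifiers, 32475 were found in GENCODE M21.

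Each cell was scored for 23 lists of markers by the mean of log-scaled UMIs per 10000, scaled to the 95th percentile of each marker. The highest list gave the type if at least 3 of its markers were detected, its score was at least 0.2 and it led by at least 0.05. dFB subsets came from 6 lists, with at least 2 markers. The markers were listed with the design, but the gate and its thresholds were set after seeing the data. Within 0.05 of the score limit lay 611 Ctrl and 1150 AD cells. The genes studied and all lists were chosen with earlier results of these data known. Genes outside the 4 were named if they were on a list and past 2-fold, or among the 5 most alike by r, and differentiation markers, dissociation genes and genes leading a cluster were named beside a result they touch.

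CPM were computed from UMIs summed over the cells of a class, with exact Poisson intervals, exact Clopper-Pearson intervals for shares and exact conditional intervals for ratios, all at 95%. A count of 0 was bounded by 3 counts. Calls past 2-fold were made on log2(CPM + 1) for genes at 20 CPM or more in either library. For shares at equal depth, cells were thinned to 1000 UMIs, which left out 368 Ctrl and 499 AD cells. Leiden clusters (36 at resolution 1, from 2000 variable genes, 30 principal components and 20 neighbours) served as a second grouping. Doublets were kept. As an alternative they were called with Scrublet, whose automatic threshold marked 395 cells in Ctrl and 0 in AD, so that the Ctrl threshold was used for both and marked 194 in AD. The ratio was tried on simulated dFB sums, where the intervals covered the true value in 90.9% to 97.2% of genes for each fold. These sums held Poisson counting error alone, which the intervals assume. The run therefore checks the computation and says nothing of spread between cells or animals. Analyses used scanpy 1.11.5 with leidenalg 0.10.2 for clustering, pandas 2.3.3 and scipy 1.17.1 for sums and intervals, and matplotlib 3.10.9 for figures, under Python 3.11.15.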

Additional observations from a re-analysis of the deposited data

Results flagged for a closer look

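The ratio of Slc30a1 had opposite signs in dFBs and keratinocytes. It was 0.87 on the log2 scale in dFBs (15.4 CPM in Ctrl, 28.2 CPM in AD) and -1.24 in keratinocytes (110 and 46.6 CPM). Among dFBs low in dissociation genes it was 0.40, and in dFBs the gene reached the 20 CPM limit through AD alone. Of the keratinocyte clusters compared between the libraries, that led by Krt15 and Krt17 had -1.50. The others had 0.24 (-0.17 to 0.64) and 0.30 (-0.13 to 0.72). The difference between the types was not tested, since each condition has 1 library. Without 2 clusters of Ctrl keratinocytes that AD lacked, an alternative added once the data had been seen, the keratinocyte ratio was -0.67.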

How the results depend on the processing

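The log2 ratios of AD over Ctrl for Mt1, Mt2 and Slc30a1 in dFBs and for all 4 genes in keratinocytes, and that of Mt4 in keratinocytes over other cells, kept their direction under each alternative tried. No paired analysis was possible because each condition has 1 library. Intervals for counting error are narrow for sums of many UMIs, so small shifts pass them, and leaving out a replicate could not be done.

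With all deposited barcodes, the log2 ratio was 3.17 for Mt1 and 2.43 for Mt2 in dFBs and 2.17 and 1.56 in keratinocytes, and Mt4 in keratinocytes over other cells was 5.59. With Leiden clusters in place of the gate, it was 3.19, 2.44 and 1.14 for Mt1, Mt2 and Slc30a1 in dFBs, 2.07 and 1.26 for Mt1 and Mt2 in keratinocytes, -7.80 for Mt4 in keratinocytes and 6.57 for Mt4 over other cells. With 1 marker more in the gate, Mt1 was 3.07 in dFBs and 2.48 in keratinocytes, Mt2 was 1.69 and the limit for Mt4 was -8.85 in keratinocytes, as it was with at least 500 genes and 1000 UMIs per cell. Without doublets, Mt1, Mt2 and Slc30a1 were 3.11, 2.37 and 1.04 in dFBs, the Mt4 limit was -8.80 and Mt4 over other cells was 6.48.

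Without cells above the median dissociation share, Mt1, Mt2 and Slc30a1 were 3.35, 2.63 and 0.40 in dFBs and 1.98, 1.19 and -1.63 in keratinocytes, with -8.05 for Mt4. With the mean of the CPM of single cells, Mt1 and Mt2 were 3.05 and 2.25 in dFBs, 2.65 and 1.79 in keratinocytes, Slc30a1 was -0.99 in keratinocytes and Mt4 over other cells was 5.71. With scaling by the median ratio of genes, Mt1 and Mt2 were 3.03 and 2.28 in dFBs and 2.47 and 1.68 in keratinocytes, and Mt4 was -8.80. After thinning to 1000 UMIs they were 3.03 and 2.30 in dFBs and 2.71 and 1.82 in keratinocytes, and the Mt4 limit was -4.67, since fewer UMIs give a higher limit. With states weighted by their share in Ctrl, Mt1, Mt2 and Slc30a1 were 2.64, 1.96 and 1.04 in dFBs and 1.99, 1.17 and -1.003 in keratinocytes. The mean of single cells and the weighting gave no value for Mt4, which had 0 UMIs in AD.

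Of the alternatives chosen after seeing the data, leaving out the Ctrl-only clusters gave 3.55, 3.08 and -0.67 for Mt1, Mt2 and Slc30a1 in keratinocytes, and counting cells of no type among the others gave 3.99 for Mt4. Where no construction is named, the cause of a shift was not tested. Genes most like Slc30a1 depended on the floor, since at 20 CPM (12111 genes) Lrat (0.80) came before Slc39a10 (0.73).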

Other observations

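Each condition has 1 library, so the spread between animals is unknown, and no value here separates MC903 from the preparation of a sample. The 24 suprabasal keratinocytes of AD had a median of 1383.5 UMIs, which bounds Mt4 in them only to 10.1 CPM. Cells of no type were 20.3% of AD and 10.1% of Ctrl, and they held 11.7% of the Ctrl Mt4 UMIs. Of the 222 Ctrl cells with at least 10 Mt4 UMIs, 38 had no type and 3 were dFBs. Mt1 in the 48 AD neutrophils rested on few cells, as the top 10% carried 78.7% of its UMIs.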
